A study of Homo sapiens with 12 samples.

Results

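Interferon-stimulated genes were described across the HMC-1 mast cell sublines by their level and by their change between sublines. The 44 members were taken by symbol, and all 44 were found among the 58381 genes of the deposited tables. HMC-1 is an immature human mast cell line that grows without stem cell factor because its receptor, KIT, is mutated. HMC-1.1 cells carry V560G-KIT alone, HMC-1.2 cells have D816V in addition, and both clones named HMC-1.3 were made from HMC-1.2 cells in which CRISPR/Cas9 editing reversed V560G, so that D816V-KIT remains. Each HMC-1.3 group, clone 1 and clone 2, is a single clone, so the effect of the edit and the particularities of that clone cannot be told apart. Polyadenylated RNA was sequenced in 3 libraries for each of the 4 groups. The comparisons ask which of these genes differed between the double KIT mutant and each single mutant, between the single mutants, and between the edited clones.

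Interferons are secreted proteins that warn neighbouring cells of viral infection. Type I interferons bind IFNAR1 and IFNAR2, whose kinases JAK1 and TYK2 then become active. STAT2 and IRF9 are parts of the factor ISGF3, which binds the interferon-stimulated response element in the promoters of its target genes. The targets include sensors of viral RNA, enzymes that degrade RNA or block its translation, membrane proteins that stop viruses from entering or leaving the cell, and proteins that dampen the response. Many of them keep a basal level in cells that have met no virus, and mast cells are among the cells that respond to type I interferon.

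The 12 libraries held 29225900 to 43181402 expected counts, and their TMM factors ran from 0.974 to 1.024. Of the 12 mast cell markers examined, KIT (346 to 469 FPKM), the histamine-forming enzyme HDC (814 to 1037 FPKM) and GATA2 (212 to 247 FPKM) were high in every library, whereas the IgE receptor chain MS4A2 (0.06 to 0.45 FPKM) and the chymase CMA1 (0 to 0.15 FPKM) were near 0. The mast cell markers also differed from HMC-1.2: of 11 tested, 1 was called higher and 5 lower in each of the 3 comparisons. The tryptase gene TPSAB1 had log2 fold changes of -3.83 for clone 1, -4.41 for clone 2 and -4.07 for HMC-1.1, and the carboxypeptidase CPA3 was the marker called higher in all 3. The 12 markers summed to 2604 to 2641 FPKM in HMC-1.2 and to 1725 to 1852 FPKM in the other groups, so they moved in the same contrasts as the interferon-stimulated genes, and their part in those results was not tested. The KIT genotype cannot be read from gene counts. Libraries of a group were plated as a triplicate, and nothing says that they came from separate cultures before that, so p-values measure the spread between these libraries. One library stood apart: replicate 3 of clone 2 had 89 genes far above every other library, against 0 to 5 such genes elsewhere, among them the epithelial keratins KRT8 (458.98 counts, against 2 to 13) and KRT18 (429 counts, against 0 to 4). Of the interferon-stimulated genes, 1 was among these 89, EIF2AK2. The 48 calls of interferon-stimulated genes in the comparisons with HMC-1.2 and between the clones were also made without this library. Of these, the 14 calls of clone 2 relative to HMC-1.2 and the 10 between the clones compare libraries of clone 2. The 12 calls of clone 1 and the 12 of HMC-1.1 relative to HMC-1.2 do not, so leaving this library out hardly tests them. Of the other cell types examined, the monocyte and macrophage markers summed to at most 0.33 FPKM in any library. The T cell markers summed to 1.63 to 2.7 FPKM and the B cell markers to 2.86 to 6.07 FPKM. The fibroblast and epithelium markers summed to 0.14 to 8.31 FPKM in clone 2 and to 0.16 to 1.08 FPKM in the other groups. Relative to HMC-1.2, 1 of 2 tested B cell markers was called lower in clone 2. The 1 tested fibroblast and epithelium marker was called lower in all 3 comparisons. The 5 plasmacytoid dendritic cell markers summed to 18.57 to 21.9 FPKM in clone 2 and to 5.72 to 9.84 FPKM in the other groups, nearly all of it from GZMB and TCF4. The other markers of this list, CLEC4C, LILRA4 and IRF8, reached at most 0.17, 0.02 and 0.05 FPKM. The part of GZMB and TCF4 in the clone 2 results was not tested.

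The core of the response element is searched for here as GAAA, any pair of bases and GAAA again. A RefSeq promoter window of 300 bases on GRCh38.p14, from 250 bases before to 50 after the start of the gene, was given for 35 of the 44 members. This core stood on either strand of 22 of these 35 windows (62.9%), against 1016 of 27305 windows of all genes (3.72%). A second motif, TTCNNNGAA, which is the binding site of STAT dimers, stood in 10 of the 35 (28.6%) and in 2171 of all windows (7.95%). Where both lay close together they could share bases. The core was found in 10 of 14 members that were called changed in at least 1 comparison and in 12 of 21 that were not. Of the called members, CMPK2, OAS1, RSAD2 and XAF1 had a window without the core. No window was given for the called members IRF7, IFIT2, OAS2, MX2, TRIM22 and USP18. The following stretches of 30 bases were chosen only among windows that hold the core. They come from the IFIT cluster that was higher than in HMC-1.2 and from genes that fell or rose in 1 clone. An uncalled gene (ISG15) and the gene that was near 0 in most libraries (EIF2AK2) were added. Each stretch is printed 5′ to 3′ along the strand of its gene, with the motif or its reverse complement in capitals.
IFIT3, chr10:89327865-89327894, + strand: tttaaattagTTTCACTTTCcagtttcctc
IFIT1, chr10:89392497-89392526, + strand: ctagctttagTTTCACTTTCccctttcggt
IFIT5, chr10:89414554-89414583, + strand: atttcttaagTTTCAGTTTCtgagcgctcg
IFI44, chr1:78649761-78649790, + strand: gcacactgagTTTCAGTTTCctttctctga
EPSTI1, chr13:42992272-42992301, - strand: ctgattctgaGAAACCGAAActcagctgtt
IFI27, chr14:94110631-94110660, + strand: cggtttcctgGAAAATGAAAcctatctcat
IFI6, chr1:27672288-27672317, - strand: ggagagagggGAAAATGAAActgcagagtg
BST2, chr19:17405741-17405770, - strand: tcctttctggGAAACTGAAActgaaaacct
ISG15, chr1:1013380-1013409, + strand: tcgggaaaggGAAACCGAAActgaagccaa
EIF2AK2, chr2:37156967-37156996, - strand: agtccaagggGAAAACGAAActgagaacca
The stretch upstream of IFIT3 has the same motif letters as that of IFIT1, IFI27 shares its motif with IFI6, and EPSTI1 shares its motif with ISG15. IFIT5 and IFI44 have the same letters, which are the reverse complement of those of BST2. Genes with the same letters did not all change alike: BST2 was called lower in clone 1, and IFIT5 was called higher in clone 2. A match is a description of letters and does not show that a factor was bound there.

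Most members had a basal level in all sublines. FPKM are fragments scaled to transcript length and library size and are the only scale used here to compare one gene with another. Over the 12 libraries, 3 members averaged over 100 FPKM, 18 averaged 10 to 100, 17 averaged 1 to 10 and 6 averaged under 1 FPKM. The membrane proteins IFITM1 (2688 to 3542 FPKM) and IFITM2 (2219 to 2754 FPKM) exceeded all other members, followed by the virion tether BST2 (183 to 293 FPKM). The 6 lowest members were OAS2, MX1, MX2, EIF2AK2, ISG20 and IFI44L, so MX1, an often used marker of interferon action, was near 0 (0.05 to 0.33 FPKM, 4 to 24 counts) beside ISG15 at 59.3 to 79.8 FPKM. Without IFITM1 and IFITM2, the summed level of the other members ran from 777.7 to 802.7 FPKM for HMC-1.1 and from 813.9 to 838.4 FPKM for HMC-1.2. The sum ran from 771.5 to 789.2 FPKM for clone 1 and from 918.3 to 957.9 FPKM for clone 2. Clone 2 lay above all other libraries in this sum, and the ranges of HMC-1.1 and clone 1 overlapped. In bulk RNA, fewer cells that express a gene and less of its RNA per cell cannot be told apart.

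**Figure D1:**
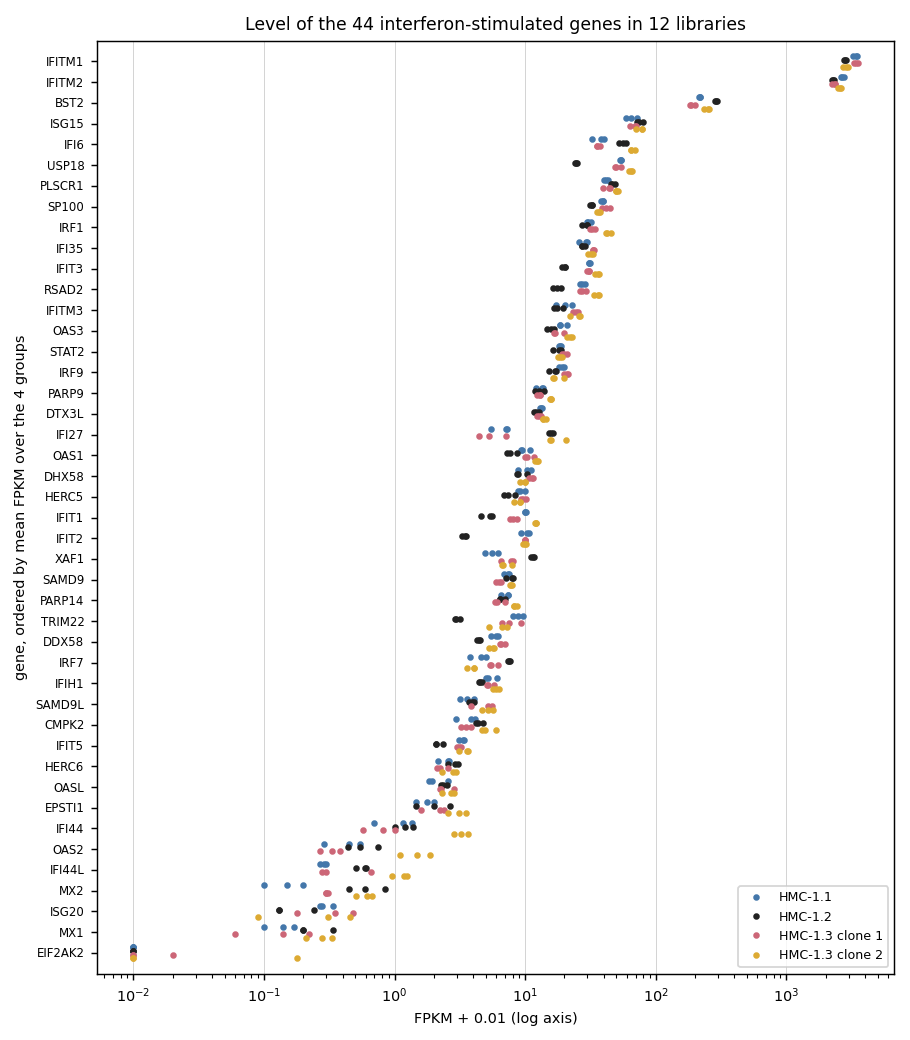
Level of the 44 interferon-stimulated genes in the 12 libraries, in FPKM + 0.01 on a log axis, with 1 point per library coloured by subline and genes ordered by their mean over the 4 groups. Levels run from EIF2AK2, at 0 FPKM in most libraries, to IFITM1 at up to 3542 FPKM, and the points of most genes lie close together, while those of IFI44, OAS2 and IFI44L spread apart with clone 2 at the right.

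Calls required an adjusted p below 0.05 and a fold change over 1.5, from the quasi-likelihood test of edgeR, with p-values adjusted by Benjamini and Hochberg's method over 15944 genes. Of the 44 members, 43 passed the filter on low counts and were tested. Relative to HMC-1.2, 12 of the 43 were called in clone 1, 4 higher and 8 lower, beside 20% of all genes (11.8% higher and 8.18% lower). This balance changed with the method. Limma on log2(FPKM + 0.1) called 6 higher and 6 lower, beside 19.4% of all genes in either direction. Limma on log2(FPKM + 1) called 5 higher and 3 lower, beside 11.9%. In clone 2, 14 were called relative to HMC-1.2, 12 higher and 2 lower, beside 16.5% of all genes (7.98% higher and 8.51% lower). In HMC-1.1, 12 were called relative to HMC-1.2, 6 higher and 6 lower, beside 17.6% of all genes (10.1% higher and 7.52% lower). The members' median log2 fold change was 0.14 for clone 1, 0.27 for clone 2 and 0.04 for HMC-1.1, where the medians of all genes were 0.01, 0 and 0.01. These comparisons share the HMC-1.2 libraries and are given side by side. At the adjusted p alone, 35 members passed for clone 1, 21 higher and 14 lower, beside 59.4% of all genes (30.1% and 29.3%). For clone 2, 30 passed, 27 higher and 3 lower, beside 48.5% of all genes (24.7% and 23.8%). For HMC-1.1, 29 passed, 17 higher and 12 lower, beside 53.7% of all genes (27.2% and 26.5%). Members called higher in all 3 comparisons were IFIT1, IFIT2, TRIM22 and USP18, and XAF1 was called lower in all 3. In no comparison with HMC-1.2 were 24 tested members called. How many of all genes follow these patterns was not counted, and the shared HMC-1.2 libraries tie the 3 comparisons together.

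**Figure D2:**
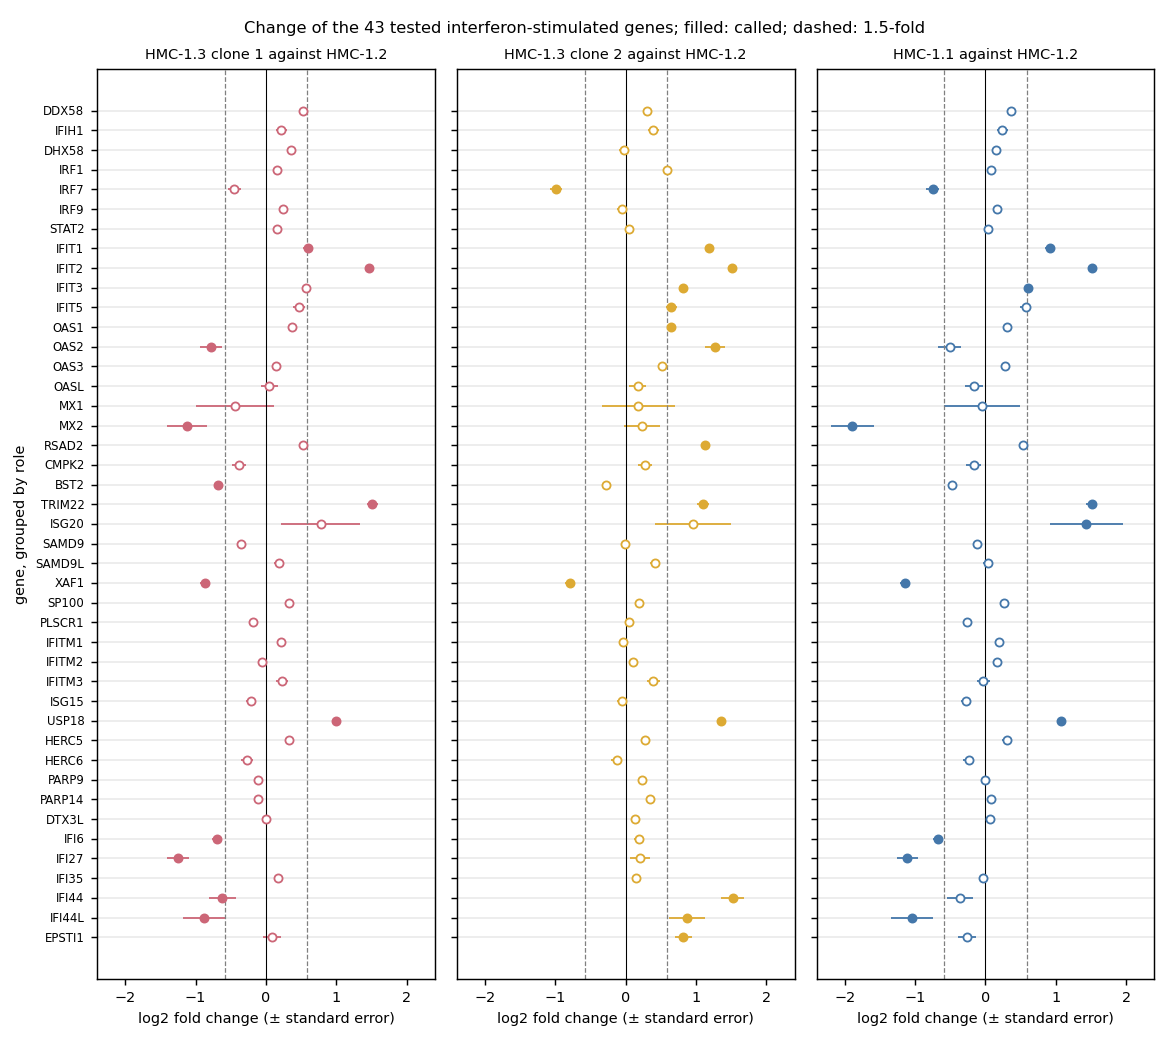
Log2 fold change against HMC-1.2 with its standard error for the 43 tested members, grouped by role, in HMC-1.3 clone 1, HMC-1.3 clone 2 and HMC-1.1; filled points were called and dashed lines mark a fold change of 1.5. IFIT2, TRIM22 and USP18 stand at the right and XAF1 at the left in all 3 panels, while OAS2, IFI44 and IFI44L lie at the left for clone 1 and at the right for clone 2.

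DDX58 encodes RIG-I and IFIH1 encodes MDA5, which detect viral RNA in the cytoplasm, and DHX58 encodes LGP2, which modulates them. None of these 3 sensors was called in any comparison. DDX58 ranged from 4.29 to 6.94 FPKM over the 12 libraries and IFIH1 from 4.41 to 6.3 FPKM, and DHX58 ranged from 8.66 to 11.54 FPKM. The log2 fold change of DDX58 in clone 1 against HMC-1.2 was 0.53 ± 0.06 (SE), which passed the adjusted p (3.2e-07) and missed the fold threshold.

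Of the transcription factors, IRF7, which amplifies interferon production after infection, was lower outside HMC-1.2. Its level was 7.61, 7.51 and 7.34 FPKM in HMC-1.2 and 4.06, 4.02 and 3.58 FPKM in clone 2. HMC-1.1 had 4.97, 3.76 and 4.62 FPKM, and clone 1 lay between with 6.15, 5.49 and 5.37 FPKM. Neither clone nor HMC-1.1 overlapped HMC-1.2. IRF7 fell in clone 2 (log2 fold change -0.99 ± 0.09, adjusted p = 1.2e-07) and in HMC-1.1 (-0.75 ± 0.09, adjusted p = 2.7e-06). In clone 1 its log2 fold change was -0.45 ± 0.09, which was not called. The ISGF3 components showed no call: STAT2 kept 16.4 to 20.8 FPKM and IRF9 kept 15.2 to 21.3 FPKM in all libraries. The largest STAT2 log2 fold change against HMC-1.2 was 0.15 ± 0.04 in clone 1. IRF1, a factor induced by interferon-gamma, had 42.07, 45.56 and 41.37 FPKM in clone 2 and 27.42 to 34.04 FPKM in the other libraries. Its log2 fold change of 0.58 ± 0.04 against HMC-1.2 lay just under the fold threshold (adjusted p = 7.7e-09).

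The IFIT proteins bind viral RNA that lacks the cap methylation of the host. Of the 4 IFIT genes, clone 2 had 4 called higher than HMC-1.2, HMC-1.1 had 3 and clone 1 had 2. Of all genes, 7.98%, 10.1% and 11.8% were called higher in the same order, and the family's counts rest on few genes. Its median log2 fold changes were 1.00, 0.76 and 0.58. IFIT2 had 3.47, 3.54 and 3.26 FPKM in HMC-1.2. It reached 10.66, 10.31 and 9.34 FPKM in HMC-1.1, 10.02, 9.89 and 10 FPKM in clone 1 and 10.04, 9.56 and 10.11 FPKM in clone 2. The single mutants thus overlapped one another and stood apart from the double mutant, with log2 fold changes of 1.47 ± 0.06 in clone 1 (adjusted p = 1.1e-12), 1.51 ± 0.06 in clone 2 (adjusted p = 8e-13) and 1.52 ± 0.06 in HMC-1.1 (adjusted p = 7.3e-13), a rise of 2.78-, 2.85- and 2.87-fold. IFIT1 was graded instead: it had 5.39, 4.61 and 5.56 FPKM in HMC-1.2, 8.72, 8.01 and 7.63 in clone 1, 9.9, 9.93 and 10.12 in HMC-1.1 and 12.07, 11.8 and 12.17 in clone 2. No group overlapped the next. Its log2 fold change against HMC-1.2 was 0.60 ± 0.07 in clone 1 (adjusted p = 1.7e-06), 0.91 ± 0.07 in HMC-1.1 (adjusted p = 9.1e-09) and 1.19 ± 0.07 in clone 2 (adjusted p = 2.1e-10). The call in clone 1 was lost without replicate 2 of HMC-1.2 or replicate 1 of clone 1, and in DESeq2, since the change lies at the fold threshold.

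IFIT3, a partner that stabilises IFIT1, had 20, 19.15 and 20.31 FPKM in HMC-1.2 and 34.35, 36.14 and 36.47 FPKM in clone 2. HMC-1.1 had 30.88, 31.6 and 31.04 FPKM and clone 1 had 30.86, 30.97 and 29.97 FPKM, all above HMC-1.2. The gene rose in clone 2 (0.82 ± 0.04, adjusted p = 3.4e-12) and in HMC-1.1 (0.61 ± 0.04, adjusted p = 2e-10), and its log2 fold change of 0.57 ± 0.04 in clone 1 missed the fold threshold. IFIT5 was the lowest of the family, with 2.07 to 2.32 FPKM in HMC-1.2 and 2.98 to 3.62 FPKM elsewhere. It rose in clone 2 (0.65 ± 0.08, adjusted p = 3.1e-06), and its log2 fold changes of 0.47 ± 0.08 in clone 1 and 0.57 ± 0.08 in HMC-1.1 were not called.

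The IFIT genes lie in a row on chromosome 10 (GRCh38, from 89283694 at the start of IFIT2 to 89421605 at the end of IFIT5), and some of their neighbours that are not interferon targets by this list also differed. ACTA2, the smooth muscle actin, was higher than in HMC-1.2 by 1.72 for clone 1, 1.51 for clone 2 and 1.58 for HMC-1.1 on the log2 scale. FAS, a death receptor, had 0.71, 0.98 and 0.66 in the same order, and PANK1, of coenzyme A synthesis, had 0.63, 0.87 and 0.92, all of them called. LIPA, the lysosomal acid lipase, lies on the opposite strand across IFIT1, IFIT2 and IFIT3 and was not called (0.05, 0.30 and 0.11), and neither was KIF20B (-0.31, 0.06 and -0.04). Whether the counting used the strand is not given in the sources used here. If it did not, reads from LIPA and from these IFIT genes cannot be told apart where they overlap.

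**Figure D3:**
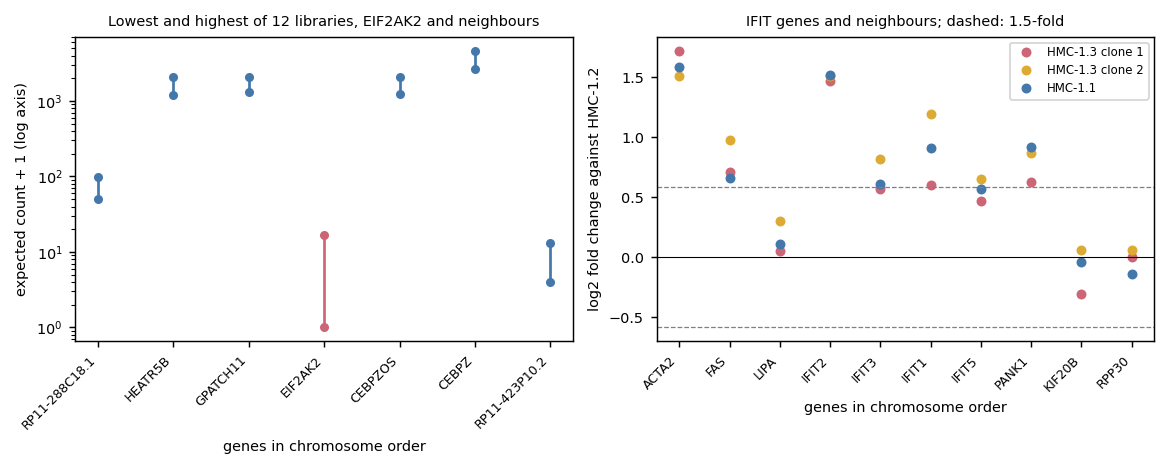
Left, the lowest and highest expected count + 1 over the 12 libraries, on a log axis, for EIF2AK2 (red) and its tested neighbours (blue) in chromosome order; right, log2 fold change against HMC-1.2 for the IFIT genes and their tested neighbours in chromosome order, with dashed lines at a fold change of 1.5. EIF2AK2 stays at 0 to 16 counts beside neighbours such as CEBPZ at 2629 to 4637 counts, and ACTA2, FAS and PANK1 lie above the upper dashed line together with IFIT2 and IFIT1 in all 3 groups.

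The OAS enzymes make the oligoadenylate that activates RNase L, and OAS1 and OAS2 were both called higher in clone 2 than in HMC-1.2. OAS1 had 7.26, 8.58 and 7.71 FPKM in HMC-1.2 and 12.36, 12.48 and 11.92 FPKM in clone 2, a rise of 0.64 ± 0.06 on the log2 scale (adjusted p = 6.9e-08), while clone 1 (0.37 ± 0.06) and HMC-1.1 (0.31 ± 0.06) were not called. OAS2 went in opposite directions in the clones. It had 0.53, 0.43 and 0.74 FPKM in HMC-1.2, 1.47, 1.09 and 1.85 FPKM in clone 2 and 0.32, 0.26 and 0.37 FPKM in clone 1. Neither clone overlapped HMC-1.2. OAS2 rose in clone 2 (1.27 ± 0.14, adjusted p = 8.8e-07) and fell in clone 1 (-0.78 ± 0.16, adjusted p = 0.00051), and its log2 fold change in HMC-1.1 (0.28, 0.44 and 0.53 FPKM) was -0.51 ± 0.16, which was not called. These values rest on 35 to 210 counts per library. OAS3, the largest enzyme of the family (14.67 to 22.94 FPKM), and the related OASL (1.81 to 2.84 FPKM) were called in no comparison.

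Of the other antiviral effectors, TRIM22 (chromosome 11, 5689610 to 5737089), a ubiquitin ligase that restricts retroviruses, rose in all 3 comparisons with HMC-1.2. It had 2.89, 3.18 and 2.93 FPKM in HMC-1.2 and 8.79, 9.64 and 8.02 FPKM in HMC-1.1. Clone 1 had 9.26, 6.65 and 7.53 FPKM, and clone 2 had 5.29, 6.58 and 7.22 FPKM. Every single-mutant library lay above every HMC-1.2 library, with log2 fold changes of 1.51 ± 0.08 in clone 1 (adjusted p = 9.1e-11), 1.51 ± 0.08 in HMC-1.1 (adjusted p = 1e-10), and a rise of 2.14-fold in clone 2 (adjusted p = 9.5e-09). TRIM5, a retroviral restriction factor whose gene overlaps TRIM22 on the opposite strand, had log2 fold changes of 0.52 for clone 1, 0.63 for clone 2 and 0.69 for HMC-1.1 and was called in the latter pair. The uncertainty about strand described for LIPA holds for this pair too.

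XAF1 (chromosome 17, 6755447 to 6775647), a pro-apoptotic partner of the inhibitor XIAP, was the member that fell in every single mutant. It had 11.43, 10.99 and 11.58 FPKM in HMC-1.2, 6.16, 5.57 and 4.94 FPKM in HMC-1.1, 7.75, 6.5 and 8.03 FPKM in clone 1 and 6.77, 6.66 and 7.91 FPKM in clone 2. HMC-1.2 stood above all other libraries, and the clones overlapped. Relative to HMC-1.2 it changed by -0.87 ± 0.07 in clone 1 (adjusted p = 1.3e-08), -0.79 ± 0.07 in clone 2 (adjusted p = 4.7e-08) and -1.14 ± 0.07 in HMC-1.1 (adjusted p = 6e-10) on the log2 scale.

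MX2 (chromosome 21, 41361999 to 41409393), a GTPase that blocks retroviral nuclear import, had few reads (10 to 73 counts). Its level was 0.84, 0.44 and 0.58 FPKM in HMC-1.2 and 0.66, 0.5 and 0.6 FPKM in clone 2, which overlapped. It had 0.09, 0.19 and 0.14 FPKM in HMC-1.1 and 0.3, 0.29 and 0.29 FPKM in clone 1, all below the former. The gene fell in clone 1 (-1.12 ± 0.28, adjusted p = 0.0026) and in HMC-1.1 (-1.89 ± 0.31, adjusted p = 5.7e-05). Its tested neighbour on chromosome 21, BACE2, a protease related to the amyloid precursor protein secretase, fell in the same groups, by 2.51 on the log2 scale in clone 1 and by 2.44 in HMC-1.1, with -0.51 in clone 2.

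RSAD2 encodes viperin, which makes a chain-terminating nucleotide, and it was highest in clone 2. It had 18.95, 16.25 and 17.52 FPKM in HMC-1.2, 28.64, 27.03 and 26.46 FPKM in HMC-1.1, 29.29, 27.09 and 26.48 FPKM in clone 1 and 36.21, 33.62 and 36.98 FPKM in clone 2. HMC-1.1 and clone 1 overlapped between the other groups. RSAD2 rose in clone 2 (1.12 ± 0.04, adjusted p = 1.8e-13), whereas log2 fold changes of 0.52 ± 0.04 in clone 1 and 0.54 ± 0.04 in HMC-1.1 missed the fold threshold. The adjacent CMPK2, a nucleotide kinase that supplies viperin, did not follow: its log2 fold changes were -0.38 ± 0.10, 0.28 ± 0.10 and -0.17 ± 0.10 in clone 1, clone 2 and HMC-1.1, none of them called. Its level was 4.16, 4.38 and 4.73 FPKM in HMC-1.2, 3.24, 3.87 and 3.52 FPKM in clone 1 and 5.95, 4.92 and 4.63 FPKM in clone 2, with the clones not overlapping.

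BST2, or tetherin, which holds budding virions at the cell surface, had 288.73, 292.91 and 283.69 FPKM in HMC-1.2 and 185.7, 198.58 and 182.81 FPKM in clone 1. HMC-1.1 had 217.11, 215.65 and 217.02 FPKM and clone 2 had 255.54, 249.17 and 233.14 FPKM. The groups formed 4 separate levels with HMC-1.2 highest. BST2 fell in clone 1 (-0.68 ± 0.04, adjusted p = 3.5e-10), and log2 fold changes of -0.47 ± 0.04 in HMC-1.1 and -0.28 ± 0.04 in clone 2 were not called. ISG20, an RNA exonuclease, was near the limit of detection (3 to 25 counts). It was called higher in HMC-1.1 (1.43 ± 0.52, adjusted p = 0.028), where its normalised counts overlapped those of HMC-1.2. This call was lost in 9 of 22 alternatives. Among them were the fits without replicate 1 or 2 of HMC-1.1 and without replicate 1 or 3 of HMC-1.2. The fit with a term for the libraries labelled resent lost it too. MX1, SAMD9, SAMD9L, SP100 and PLSCR1 were called in no comparison. SAMD9 and SAMD9L, paralogues that restrict poxviruses, had 6.02 to 8.11 and 3.18 to 5.63 FPKM. SP100, a protein of nuclear bodies, had 31.48 to 44.64 FPKM and the phospholipid scramblase PLSCR1 had 39.4 to 51.74 FPKM. MX1, a dynamin-like GTPase active against influenza virus, had log2 fold changes of -0.44 ± 0.56 for clone 1, 0.18 ± 0.52 for clone 2 and -0.05 ± 0.54 for HMC-1.1, and differences of this size were not detectable at 4 to 24 counts.

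EIF2AK2 encodes PKR, the kinase that stops translation when it binds double-stranded RNA, and it was the member that was not tested. The gene had 0, 0 and 0 counts in HMC-1.1, 0, 1 and 0 in HMC-1.2, 2, 0 and 0 in clone 1 and 0, 1 and 16 in clone 2. All groups but clone 2 were at or under 3 counts in every library, and the 16 counts came from the clone 2 library that stood apart, so no fold is given. Its neighbours on chromosome 2 were well covered, GPATCH11 with 1315 to 2048 counts, HEATR5B with 1207 to 2057, CEBPZOS with 1235 to 2102 and CEBPZ with 2629 to 4637 counts. GPATCH11 overlaps EIF2AK2 by 35 bases on the opposite strand. A level of EIF2AK2 below about 3 counts per library would not be detectable at this depth.

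The IFITM proteins, which keep enveloped viruses from fusing with the cell, were not called in any comparison. IFITM1 had 3404, 3208 and 3484 FPKM in HMC-1.1, 2861, 2804 and 2781 in HMC-1.2, 3542, 3393 and 3273 in clone 1 and 2858, 2968 and 2688 in clone 2. HMC-1.1 and clone 1 lay above the other groups, by log2 fold changes over HMC-1.2 of 0.19 ± 0.04 and 0.21 ± 0.04. IFITM2 had 2219 to 2754 FPKM and IFITM3 16.71 to 26.09 FPKM. RSEM divides reads that match several genes, and the expected counts of these 3 genes were not whole in any library, so their separate values are less certain.

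Of the 4 genes of ISG15 conjugation, USP18 was called. ISG15, the ubiquitin-like protein attached to newly made proteins, had 59.27 to 79.75 FPKM in all libraries and was not called, and neither were its ligase HERC5 (6.85 to 10.05 FPKM) and the related HERC6 (2.11 to 3.06 FPKM). USP18 (chromosome 22, 18150118 to 18177397) removes ISG15 from proteins and also blocks signalling at IFNAR2. It had 24.43, 25.11 and 24.18 FPKM in HMC-1.2, 53.73, 53.19 and 53.81 FPKM in HMC-1.1, 54.16, 48.4 and 49.83 FPKM in clone 1 and 65.29, 64.85 and 62.89 FPKM in clone 2. HMC-1.2 lay far below all other groups. USP18 rose by 0.99 ± 0.04 in clone 1 (adjusted p = 2.1e-12), by 1.36 ± 0.04 in clone 2 (adjusted p = 3e-14) and by 1.08 ± 0.04 in HMC-1.1 (adjusted p = 6.7e-13) on the log2 scale, or 1.99-, 2.56- and 2.11-fold. Its expected counts were not whole in any library, so some of its reads were divided with other genes and its level is less certain.

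**Figure D4:**
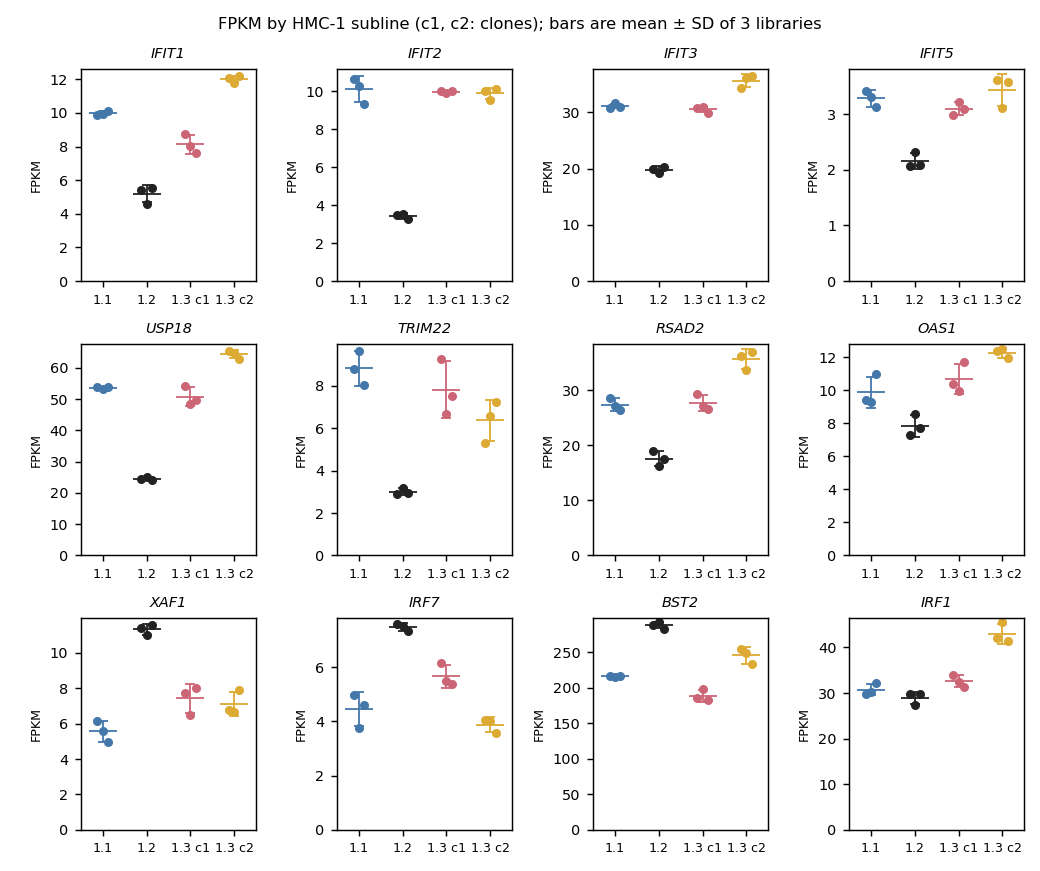
FPKM of 12 members in each library of the 4 groups (c1 and c2 are the HMC-1.3 clones), on linear axes from 0, with bars at the mean ± SD of 3 libraries. HMC-1.2 is lowest for the IFIT genes, USP18, TRIM22, RSAD2 and OAS1 and highest for XAF1, IRF7 and BST2, while clone 2 alone is raised for IRF1.

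PARP9 and DTX3L, partners in modifying histones and viral proteins, and PARP14, an ADP-ribosyltransferase, were not called in any comparison. Over the 12 libraries, PARP9 had 11.93 to 15.75 FPKM, PARP14 5.85 to 8.65 FPKM and DTX3L 11.77 to 14.39 FPKM. The values of clone 2 were the highest for all 3, and the log2 fold change of PARP14 against HMC-1.2 was 0.35 ± 0.05 there.

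Of the 5 IFI genes and EPSTI1, 4 were called lower than in HMC-1.2 in clone 1, 3 were called higher in clone 2 and 3 were called lower in HMC-1.1. Of all genes, 8.18%, 7.98% and 7.52% were called in these directions, and the counts here rest on few genes. The medians of these members were -0.66, 0.51 and -0.52. IFI44, an interferon-induced cytoplasmic protein, had 1.37, 1 and 1.19 FPKM in HMC-1.2, 1.15, 0.69 and 1.36 FPKM in HMC-1.1, 0.81, 0.56 and 0.99 FPKM in clone 1 and 3.65, 3.19 and 2.84 FPKM in clone 2. Clone 2 stood above all other libraries. IFI44 rose in clone 2 (1.52 ± 0.16, adjusted p = 4.9e-07) and fell in clone 1 (-0.62 ± 0.19, adjusted p = 0.0085), a call that was lost without replicate 3 of HMC-1.2 or replicate 2 of clone 1.

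Its neighbour and paralogue IFI44L, on chromosome 1, had 0.59, 0.58 and 0.5 FPKM in HMC-1.2, 0.26, 0.28 and 0.29 in HMC-1.1, 0.27, 0.65 and 0.29 in clone 1 and 1.18, 1.23 and 0.94 in clone 2. It rose in clone 2 (0.87 ± 0.26, adjusted p = 0.011) and fell in clone 1 (-0.88 ± 0.30, adjusted p = 0.018) and in HMC-1.1 (-1.04 ± 0.30, adjusted p = 0.0082). In clone 1 the FPKM overlapped those of HMC-1.2 and the normalised counts did not. With 14 to 99 counts, each of these calls depended on 1 library: it was lost without replicate 3 of HMC-1.2 in clone 1 and HMC-1.1, without replicate 3 of clone 1 in clone 1, and without replicate 1 of HMC-1.2 or replicate 2 of clone 2 in clone 2.

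IFI27 and IFI6 encode small mitochondrial and endoplasmic reticulum proteins, and they were lower in HMC-1.1 and clone 1 but not in clone 2. IFI27 had 16.4, 15.3 and 15.72 FPKM in HMC-1.2 and 15.65, 20.45 and 15.51 in clone 2, which overlapped, against 7.15, 5.5 and 7.28 in HMC-1.1 and 7.12, 4.43 and 5.32 in clone 1. It fell in clone 1 (-1.25 ± 0.15, adjusted p = 2.2e-06) and in HMC-1.1 (-1.11 ± 0.15, adjusted p = 9.3e-06). IFI6 had 59.32, 52.53 and 56.27 FPKM in HMC-1.2, 65.15, 69.75 and 64.77 in clone 2, 39.81, 32.74 and 38.14 in HMC-1.1 and 35.47, 37.66 and 35.67 in clone 1. HMC-1.1 and clone 1 overlapped below the other groups. IFI6 fell in clone 1 (-0.69 ± 0.07, adjusted p = 1.8e-07) and in HMC-1.1 (-0.67 ± 0.07, adjusted p = 3.2e-07), the latter lost without replicate 2 of HMC-1.1.

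EPSTI1, a gene first known from epithelial cells next to stroma, had 2.01, 1.46 and 2.64 FPKM in HMC-1.2 and 3.54, 3.13 and 2.57 FPKM in clone 2, which overlapped in FPKM by 1 library but not in normalised counts. It rose in clone 2 (0.82 ± 0.12, adjusted p = 2.5e-05). IFI35 kept 25.87 to 33.64 FPKM and was called in no comparison.

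The clones were also compared directly. Clone 1 was lower than clone 2 for 10 members and higher for 0, beside 8.38% of all genes higher and 4.25% lower (12.6% in either direction), and the median log2 fold change of the members was -0.23, where that of all genes was 0.01. At the adjusted p alone, 8 were higher and 23 lower, beside 50.2% of all genes (25.5% and 24.7%). The log2 differences, clone 1 minus clone 2, were -2.14 ± 0.17 for IFI44 (adjusted p = 1.6e-08), -2.05 ± 0.15 for OAS2 (adjusted p = 6.1e-09), -1.75 ± 0.28 for IFI44L (adjusted p = 5.8e-05), -1.45 ± 0.15 for IFI27 (adjusted p = 5.2e-07) and -1.35 ± 0.28 for MX2 (adjusted p = 0.00057). IFI6 (-0.88), EPSTI1 (-0.73), CMPK2 (-0.66), IFIT1 (-0.59) and RSAD2 (-0.59) made up the rest, of which IFIT1 lost the call without replicate 1 of clone 2 or replicate 3 of clone 1, and RSAD2 without replicate 2 of clone 1. All 10 had every clone 1 library below every clone 2 library in normalised counts. The same was not counted for all genes, so this adds no further support to the calls.

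**Figure D5:**
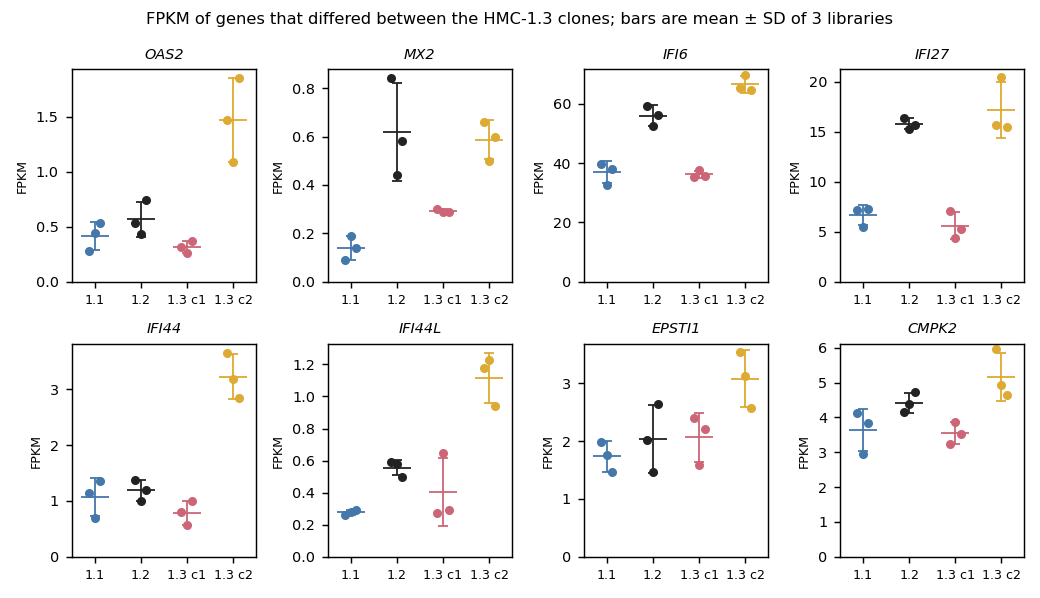
FPKM of 8 members in each library of the 4 groups (c1 and c2 are the HMC-1.3 clones), on linear axes from 0, with bars at the mean ± SD of 3 libraries. Clone 2 is highest for OAS2, IFI6, IFI44 and IFI44L, while clone 1 and HMC-1.1 lie together at the bottom for IFI6 and IFI27.

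Clone 1 and HMC-1.1 carry different KIT mutations. Of the 43 members, 0 were called between them by edgeR's test, beside 1.01% of all genes (0.671% higher and 0.339% lower), and 11 passed the adjusted p alone, 5 higher and 6 lower, beside 18.7% of all genes (8.87% and 9.83%). At an unadjusted p under 0.05 there were 18 members, which cannot be judged because all genes were not counted at that limit. The alternatives, DESeq2 and limma included, each called 0. By contrast, clone 2 was higher than HMC-1.1 for 7 members and lower for 0, beside 8.19% of all genes (3.04% higher and 5.15% lower). At the adjusted p alone, 25 were higher and 4 lower, beside 36% of all genes (18.5% and 17.5%). The 7 called members, with log2 fold changes except where a fold is named, were MX2 (2.12 ± 0.30, adjusted p = 2.7e-05), IFI44L (1.90 ± 0.28, adjusted p = 4.9e-05), IFI44 (1.88 ± 0.16, adjusted p = 1e-07), OAS2 (1.78 ± 0.14, adjusted p = 4.6e-08), IFI27 (2.47-fold, adjusted p = 2.6e-06), EPSTI1 (1.08 ± 0.12, adjusted p = 2.7e-06) and IFI6 (0.86 ± 0.07, adjusted p = 2.8e-08).

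The genes upstream of the response were examined as further lists. Of 22 interferon genes, 17 had 0 counts in all 12 libraries, and IFNB1, IFNG, IFNL1, IFNL3 and IFNL4 had at most 1, 1, 7, 1 and 3 counts in any library, so none was tested. Interferon protein was not measured. Of 10 receptors and kinases, 9 were tested, and 1 (11.1%) was called relative to HMC-1.2 in each comparison, beside 20%, 16.5% and 17.6% of all genes in clone 1, clone 2 and HMC-1.1. IFNGR2, a chain of the interferon-gamma receptor, had 21.65, 19.67 and 20.61 FPKM in HMC-1.2 and fell in clone 1 (-0.71 ± 0.06, adjusted p = 5.1e-08; 12.47 to 14.08 FPKM) and in HMC-1.1 (-0.71 ± 0.06, adjusted p = 6.6e-08; 12.29 to 14.81 FPKM). IL10RB, shared by the receptors of interleukin 10 and interferon-lambda, had 13.28 to 14.37 FPKM in HMC-1.2 and fell in clone 2 (-1.02 ± 0.07, adjusted p = 3.5e-09; 6.74 to 7.52 FPKM). IFNAR1 and IFNAR2, the chains of the type I receptor, were not called, with log2 fold changes of -0.56 and -0.20 in clone 1, -0.37 and -0.15 in clone 2 and -0.57 and -0.22 in HMC-1.1.

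Of 17 genes of nucleic acid sensing and interferon induction, 12 were tested, and 3, 2 and 3 were called lower than in HMC-1.2 in clone 1, clone 2 and HMC-1.1, with 0 higher. These are 25%, 16.7% and 25% of the list, beside 8.18%, 8.51% and 7.52% of all genes called lower, and rest on few genes. IRF5, a factor of Toll-like receptor signalling, had 9.61, 11.58 and 9.97 FPKM in HMC-1.2 and 2.88 to 4.51 FPKM in all other libraries. It fell by 1.76, 1.78 and 1.85 on the log2 scale (adjusted p = 3.8e-11, 3.4e-11 and 2.5e-11 in the same order). STING1, the adaptor of DNA sensing, listed in the tables under its older symbol TMEM173, had 3.65, 3.92 and 4.26 FPKM in HMC-1.2. It fell in clone 1 (-1.42 ± 0.13, adjusted p = 9.2e-08), clone 2 (-0.72 ± 0.13, adjusted p = 0.00015) and HMC-1.1 (-1.74 ± 0.14, adjusted p = 1.1e-08). IFI16, a DNA sensor, had 3.99 to 5.26 FPKM in HMC-1.2 and fell in clone 1 (-0.65 ± 0.11, adjusted p = 4.4e-05) and HMC-1.1 (-0.77 ± 0.11, adjusted p = 9.9e-06), whereas clone 2 had 7.05 to 8.51 FPKM (0.52 ± 0.10, not called).

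All 9 negative regulators were tested, and clone 1 had 2 called lower than HMC-1.2, while clone 2 and HMC-1.1 had 1 each, with 0 higher. In clone 1, clone 2 and HMC-1.1 this was 22.2%, 11.1% and 11.1% of the list. Of all genes, 8.18%, 8.51% and 7.52% were called lower, and the list's shares rest on few genes. SOCS3, an inhibitor of JAK kinases, had 7.23, 6.82 and 7.88 FPKM in HMC-1.2 and fell in clone 1 (-1.32 ± 0.11, adjusted p = 1.4e-08; 2.99 to 3.01 FPKM) and HMC-1.1 (-0.77 ± 0.10, adjusted p = 6.9e-06; 3.78 to 5.03 FPKM), with 8.99 to 10.55 FPKM in clone 2. SOCS1, of the same family, fell in clone 1 (-0.62 ± 0.07, adjusted p = 5.9e-07). PTPN2, a tyrosine phosphatase that acts on JAK1, had 23.46 to 26.67 FPKM in HMC-1.2 and fell in clone 2 (-0.92 ± 0.05, adjusted p = 2e-10; 13.45 to 13.73 FPKM).

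Of 38 other interferon-induced genes, 36 were tested. Relative to HMC-1.2, 4 were called higher and 4 lower in clone 1, 8 higher and 1 lower in clone 2, and 3 higher and 4 lower in HMC-1.1, with medians of 0.02, 0.23 and 0.02 on the log2 scale. The shares called in either direction, 22.2%, 25% and 19.4%, stood beside 20%, 16.5% and 17.6% of all genes, so those for clone 1 and HMC-1.1 were near the background. GBP2 and GBP4, guanylate-binding proteins that attack vacuoles of intracellular pathogens, fell in clone 1 (-2.45 ± 0.31, adjusted p = 3.4e-06, and -1.73 ± 0.16, adjusted p = 9.8e-08) and in HMC-1.1 (-1.87 ± 0.29, adjusted p = 3.9e-05, and -1.55 ± 0.16, adjusted p = 3.8e-07). LGALS3BP, a secreted galectin ligand, fell in all 3 (-1.59 ± 0.06, -1.33 ± 0.06 and -1.66 ± 0.06 in clone 1, clone 2 and HMC-1.1), from 23.7 to 25.65 FPKM in HMC-1.2 to 7.49 to 10.69 FPKM elsewhere. In clone 2 the largest rises were those of the T cell chemokines CXCL10 (2.68 ± 0.60, adjusted p = 0.0014) and CXCL11 (1.70 ± 0.56, adjusted p = 0.018) and of GBP5 (1.69 ± 0.41, adjusted p = 0.0025), all from few counts. CXCL10 had 12, 26 and 36 counts in clone 2 and 4, 0 and 5 in HMC-1.2, and CXCL11 had 22, 26 and 15 against 10, 2 and 4. Whether the calls of CXCL10, CXCL11 and GBP5 hold without the clone 2 library that stood apart was not tested.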

How the data were processed

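Poly(A) RNA was sequenced with a stranded kit in 12 libraries, 3 for each of the 4 groups, which are the lines HMC-1.1 and HMC-1.2 and both clones edited from HMC-1.2. Per the submitters' processing notes, reads were trimmed with Cutadapt 2.10, aligned to hg38 with STAR 2.5.3 and quantified with RSEM 1.3.0. The authors deposited RSEM expected counts per gene, of which 7.39% were not whole, and FPKM. Whether counting used the strand is not given in the sources used here.

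Expected counts were rounded, filtered with filterByExpr (15944 genes kept), normalised by TMM and tested in 1 model of all 12 libraries with edgeR 4.0.16, by its quasi-likelihood test with Benjamini-Hochberg adjustment. The calling limits were an adjusted p of 0.05 and a fold change of 1.5. Levels are deposited FPKM. The steps were tested on simulated data. Fold changes come from counts, so they can differ slightly from ratios of FPKM. Totals of 29225900 to 43181402 counts make counting error small for all but the lowest genes. Gene positions came from Gencode 44 on GRCh38, and 57799 of 58381 identifiers matched. The members and lists were chosen with earlier results of these data known. Full values were given for up to 4 called members with the largest change in each role and comparison with HMC-1.2, and for up to 3 called genes of each further list. The genes that mark the library standing apart were chosen after their values were seen. Alternatives were DESeq2 1.42.0, limma 3.58.1 on log2 FPKM, other normalisation, filters, designs and the omission of each library. The result of 1 gene of the receptor and kinase list is not reported here.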

Additional observations from a re-analysis of the deposited data

Results flagged for a closer look

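Between the edited clones, 10 members passed both the adjusted p and the fold limit, so their change from HMC-1.2 differed between clones. Of all genes, 12.6% passed both limits. The adjusted p alone was passed by 31 members, 8 higher and 23 lower in clone 1, beside 50.2% of all genes (25.5% higher and 24.7% lower). The log2 difference, clone 1 minus clone 2, was -0.59 for IFIT1, -2.05 for OAS2, -1.35 for MX2, -0.59 for RSAD2 and -0.66 for CMPK2. It was -0.88 for IFI6, -1.45 for IFI27, -2.14 for IFI44, -1.75 for IFI44L and -0.73 for EPSTI1. Both clones carry the same reversal of V560G, each group holds 1 clone, and the cause of these differences was not tested.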

How the results depend on the processing

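Across 22 alternatives, 0 calls reversed, and 26 of the 48 gene calls in the comparisons with HMC-1.2 and between the clones were made under every one. Clone 1 against HMC-1.2 gave 6 called members (3 higher and 3 lower) when the fold limit was tested with glmTreat, beside 12.1% of all genes. It gave 8 (5 higher and 3 lower) with limma on log2(FPKM + 1), with or without the filter, beside 11.9% and 6.74%. With a pseudocount of 0.1 it gave 12 (6 higher and 6 lower, 10 shared), beside 19.4%. The main test called 20% of all genes, so fewer calls were made for all genes too. HMC-1.1 against HMC-1.2 gave 7 (4 higher and 3 lower) with glmTreat, beside 10.1% of all genes, where the main test called 17.6%. Clone 1 against clone 2 gave 6 with glmTreat (5.25% of all genes) and 6 with a pseudocount of 0.1 (11.1%). It gave 5 with limma on log2(FPKM + 1), with the filter (6.08%) or without it (3.33%). The main test called 12.6% of all genes between the clones. Without replicate 2 of clone 2 there were 11 called members, 1 of them higher, beside 11.7% of all genes. The cause was not tested. With each library left out in turn, the counts relative to HMC-1.2 ran from 10 to 12 for clone 1, from 13 to 15 for clone 2 and from 10 to 14 for HMC-1.1. Relative to HMC-1.1 they stayed at 0 for clone 1 and ran from 7 to 8 for clone 2, and between the clones they ran from 9 to 11. Libraries of the same replicate number were at most weakly paired, with r from -0.037 to 0.095 and a median of 0.026. Different numbers had r from -0.106 to 0.073 and a median of -0.0115, and 6 of 12 libraries correlated best with their own number. The replicate block changed none of the 48 gene calls. Low counts limit ISG20, MX1, MX2 and IFI44L.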
